A study of Mus musculus with 12 samples.

Results

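The estrogen receptor ligand 4-hydroxytamoxifen (4-OHT) was added to primary mouse melanocytes that carry an Atf2 mutation, and the expression of these cultures in normoxia was compared with that of the same mutant melanocytes without 4-OHT. The comparison holds 4 of the 12 arrays of the study, 2 from cultures with 4-OHT and 2 from cultures without it, chosen by their labels. Of 46585 probes on the array, 13883 lay above background on at least 1 of these 4 arrays (a detection p under 0.01 against the negative control beads), and 3803 genes could be named among them.

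The cells with 4-OHT are primary melanocytes labelled ATF2-/-, with the strain label FVB/129/OlaHsd/C57Bl/6, grown in normoxia with 4-OHT and doxycycline. The cells without 4-OHT have the same genotype label, strain and oxygen, and had doxycycline alone. By the study's description of its mice, a Cre recombinase fused to the estrogen receptor is driven by the tyrosinase promoter, so that 4-OHT switches on deletion of the loxP-flanked part of Atf2 in pigment cells, doxycycline induces mutant N-Ras, and Ink4a is absent. The label ATF2-/- therefore stands on both groups, although only the cultures with 4-OHT had the agent that activates the recombinase. No array of wild type cells with 4-OHT was analysed here, so the action of the drug itself, of active Cre and of the loss of ATF2 cannot be told apart. Labels number the arrays of each group 1 and 2, both arrays numbered 1 lie on 1 slide and both arrays numbered 2 on another, and whether a pair came from separate cultures is not given in the labels. The p-values then measure only the spread between arrays of the same group, pooled over the 6 groups of the study, and this spread may be technical. It is not the spread of the 4 arrays compared alone.

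ATF2 is a leucine zipper transcription factor that pairs with JUN or CREB proteins and binds DNA elements related to the cAMP response element, in genes of the stress response and of cell division. Cyclin D1, which carries cells from G1 toward S phase, is a long-known gene of this kind. Melanocytes are the pigment cells of the skin, which make melanin in melanosomes with tyrosinase and its relatives under the control of MITF and SOX10.

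The Atf2 probe was not above background on any of the 4 arrays, so the targeted gene does not check the labels, and which stretch of the Atf2 transcript it reads is not known here. Of the 3 melanocyte markers that could be named, Dct and Gpnmb were bright on all 4 arrays. Trpm1 was dimmer on control replicate 1, at 7.97. Dct, the dopachrome tautomerase of melanin synthesis, read 13.66 and 13.80 with 4-OHT and 13.85 and 13.80 without it as normalized log2 intensity, where the brightest value of any probe was 13.95. The arrays held 11900 and 13032 probes above background with 4-OHT and 11366 and 12706 without it, with the lower number on slide 1 in both groups. Markers of skeletal muscle were also present, 9 and 11 of 14 nameable ones with 4-OHT and 10 and 10 without it, against 2 and 3 in wild type cells in normoxia. Their summed intensity was 7613 and 8879 units with 4-OHT and 8584 and 12441 units without it. No marker of myeloid cells, mast cells or adipocytes lay above background on any of the 4 arrays, whereas 6 to 7 of 13 fibroblast markers and 4 of 13 keratinocyte markers did on each. The part of these other cells in the changes below was not tested. In bulk RNA, fewer cells of a type and less RNA per cell cannot be told apart.

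In the fit of all 12 arrays, 849 of the 13883 probes passed the threshold (limma, Benjamini-Hochberg adjusted p under 0.05). Of these, 361 were higher with 4-OHT (2.60% of the probes tested) and 488 were lower (3.52%). Each of the 849 moved the same way on both slides, and 349 changed by 2-fold or more. By gene, each given by its brightest probe, 58 rose (1.53% of the named genes) and 127 fell (3.34%). In each of these genes the 2 groups did not overlap, so the lack of overlap stated below for genes that passed adds nothing to the call. With the slide as a block, 1302 probes passed, 604 higher and 698 lower. The count depends on single arrays, being 43 without control replicate 1, 509 without control replicate 2 and 2985 without 4-OHT replicate 2. With the spread taken from the 4 arrays compared, 1 probe passed, against 3292 at an unadjusted p under 0.05 in the fit of all arrays. Median scaling in place of quantile normalization left 2 higher and 39 lower.

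Among the falls with 4-OHT, the largest was that of Syt4, a synaptotagmin of vesicle membranes, which read 6.55 and 6.57 with 4-OHT and 10.83 and 10.69 without it. Both arrays with 4-OHT lay far below both without it, an 18.4-fold lower level (log2 fold change -4.20 ± 0.29 (SE, n = 2 arrays a group), adjusted p = 0.000136). The call held under each of the 18 alternatives run for this gene. A second, dimmer Syt4 probe read 5.96 and 5.59 with 4-OHT and 5.89 and 5.45 without it, so the probes of this gene disagree. Tinagl1, a secreted matrix protein, read 4.90 and 5.32 with 4-OHT and 7.84 and 8.03 without it. It was 7.06-fold lower (log2 fold change -2.82 ± 0.19, adjusted p = 0.000136), and the lower group lay near background, since 1 of the arrays with 4-OHT was above it.

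Another 4 genes of this set were at background on both arrays with 4-OHT, so that only a bound can be given, computed against the higher of the probe's own value and the dimmest signal above background. Rpl29, a protein of the large ribosomal subunit, was at least 5.21-fold lower (4.44 and 4.94 with 4-OHT, 7.31 and 7.71 without it, adjusted p = 0.000148). Trim11, a ubiquitin ligase, was at least 2.70-fold lower (4.81 and 4.62 with 4-OHT, 6.63 and 6.25 without it, adjusted p = 0.00170). In neither did an array with 4-OHT reach one without it. S100a7a, a calcium-binding S100 protein, was at least 2.17-fold lower (4.46 and 4.41 with 4-OHT, 6.08 and 6.17 without it, adjusted p = 0.000465). Dusp3, a dual-specificity phosphatase, was at least 2.31-fold lower (4.53 and 4.55 with 4-OHT, 6.56 and 5.87 without it, adjusted p = 0.00511). These groups do not overlap either. Psmd8, a lid subunit of the proteasome, read 8.76 and 9.03 with 4-OHT and 11.22 and 10.78 without it, 4.30-fold lower (adjusted p = 0.00280).

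**Figure D1:**
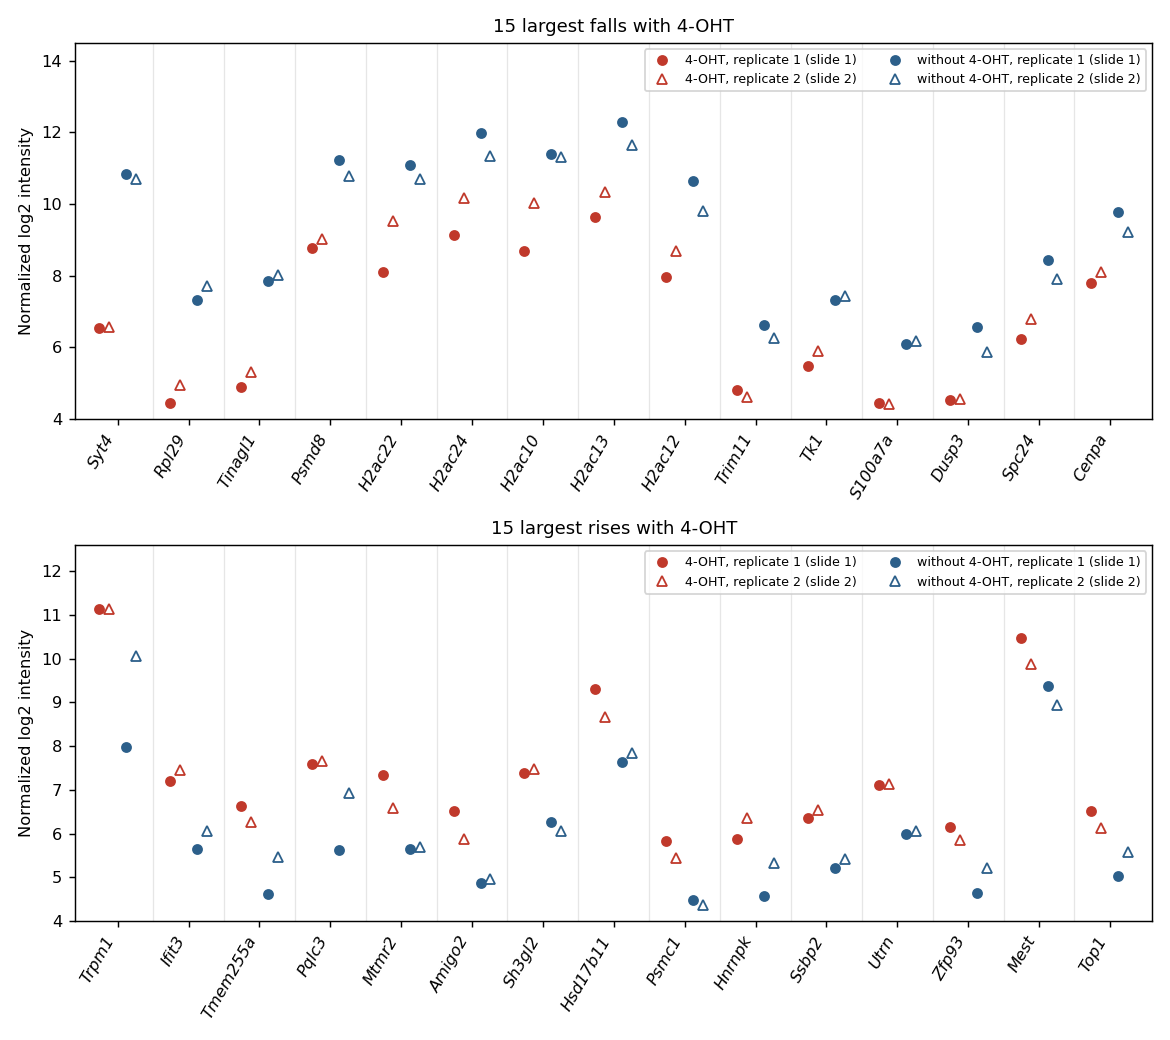
Normalized log2 intensity (vertical axis) of the 15 named genes with the largest falls (top) and the 15 with the largest rises (bottom) with 4-OHT, each array as a point, 4-OHT in red left of no 4-OHT in blue, circles for slide 1 and triangles for slide 2. Syt4 sits near 6.6 on both arrays with 4-OHT, while Trpm1 without 4-OHT reads 7.97 on slide 1 and 10.05 on slide 2.

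Among the lists examined, that of G2 and mitosis held the most falls. Of the 24 measured genes of G2 and mitosis, 11 were lower with 4-OHT, 0 were higher and 13 did not pass, where 3.34% of all named genes were lower. Their median log2 fold change was -0.78, against -0.01 for all named genes, and it was close on the 2 slides, -0.76 on slide 1 and -0.84 on slide 2. In 19 of the 24 both arrays with 4-OHT lay below both arrays without it, which held for 20.5% of all named genes.

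Spc24, a subunit of the kinetochore complex that holds microtubules, read 6.24 and 6.78 with 4-OHT and 8.44 and 7.90 without it (log2 fold change -1.66 ± 0.28, adjusted p = 0.0112). Cenpa, the histone variant that marks centromeres, read 7.79 and 8.11 with 4-OHT and 9.77 and 9.22 without it (log2 fold change -1.55 ± 0.25, adjusted p = 0.0101). Plk1, the kinase that drives entry into and passage through mitosis, read 7.75 and 7.23 with 4-OHT and 8.95 and 8.78 without it (log2 fold change -1.37 ± 0.20, adjusted p = 0.00645). The 4-OHT arrays of these 3 genes were all below the arrays without it, and the 2 slides did not share an order, Plk1 falling more on slide 2 and Spc24 and Cenpa more on slide 1. Birc5, the inhibitor of apoptosis survivin that also serves the chromosomal passenger complex, fell by 1.24 on the log2 scale by its brightest probe, and its other 2 probes, at -0.75 each, did not pass. Mki67, the proliferation antigen Ki-67, fell by 1.23. Foxm1, the transcription factor of the mitotic gene program, fell by 0.95, Nusap1, a spindle protein, by 0.92, Anln, the anillin of the cleavage furrow, by 1.05 and Pimreg, a mitotic regulator, by 1.52. The tubulins Tuba1c and Tubb4b fell by 0.81 and 0.63. Ccnb1, the cyclin of mitotic entry, had a log2 fold change of -0.63 and did not pass (adjusted p = 0.254). These calls rest on the controls, since 0 of the 24 genes passed without control replicate 1 and 6 without control replicate 2, and on the shared spread, since 1 passed in a fit of the 8 mutant arrays and 0 in a fit of the 4 arrays compared. Array weights left 0 and median scaling 2.

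Of the 18 measured genes of DNA replication, 5 were lower with 4-OHT and 0 higher (3.34% and 1.53% of all named genes), with a median log2 fold change of -0.50 (-0.56 on slide 1 and -0.37 on slide 2). Tk1, the thymidine kinase of S phase, read 5.47 and 5.89 with 4-OHT and 7.32 and 7.44 without it, 3.26-fold lower (adjusted p = 0.00280). Uhrf1, which keeps DNA methylation at the replication fork, read 7.91 and 7.68 with 4-OHT and 8.96 and 9.30 without it (log2 fold change -1.34, adjusted p = 0.00561). In neither gene did the groups overlap. Rfc5 of the clamp loader fell by 1.04, the origin factor Cdc6 by 0.76 and the helicase subunit Mcm7 by 0.63. Pcna, the sliding clamp, did not pass, and its arrays overlap, with 5.54 and 6.43 with 4-OHT and 4.79 and 6.28 without it. The count of 5 became 2 without control replicate 1, 3 without control replicate 2 and 3 without 4-OHT replicate 1.

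Histone genes of the clusters, which are transcribed in S phase, gave 8 falls among 30 measured and 0 rises, where 3.34% of all named genes fell. Of the 8, 6 are H2A genes (H2ac22, H2ac24, H2ac10, H2ac13, H2ac12 and H2ac20) and the others are H3c2 and H3c6. H2ac13 read 9.63 and 10.33 with 4-OHT and 12.28 and 11.64 without it, 3.94-fold lower (adjusted p = 0.00561). The H2A genes are near-identical copies, so their probes may read each other's transcripts and are not independent. The fall was larger on slide 1, 6.27-fold for H2ac13, than on slide 2, 2.47-fold. Of the 9 H2B genes measured 0 passed, and each stood lower with 4-OHT on slide 1 and higher on slide 2. H2bc9, the one with the largest log2 fold change, read 8.01 and 9.73 with 4-OHT and 8.26 and 8.28 without it, so that its groups overlap. Over the 30 genes the median change was -0.74 on slide 1 and 0.23 on slide 2. The count of 8 became 0 without control replicate 1, 13 without 4-OHT replicate 2, 1 in a fit of the 8 mutant arrays and 3 with median scaling. This family was set up after values of its H2A members had been seen.

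**Figure D2:**
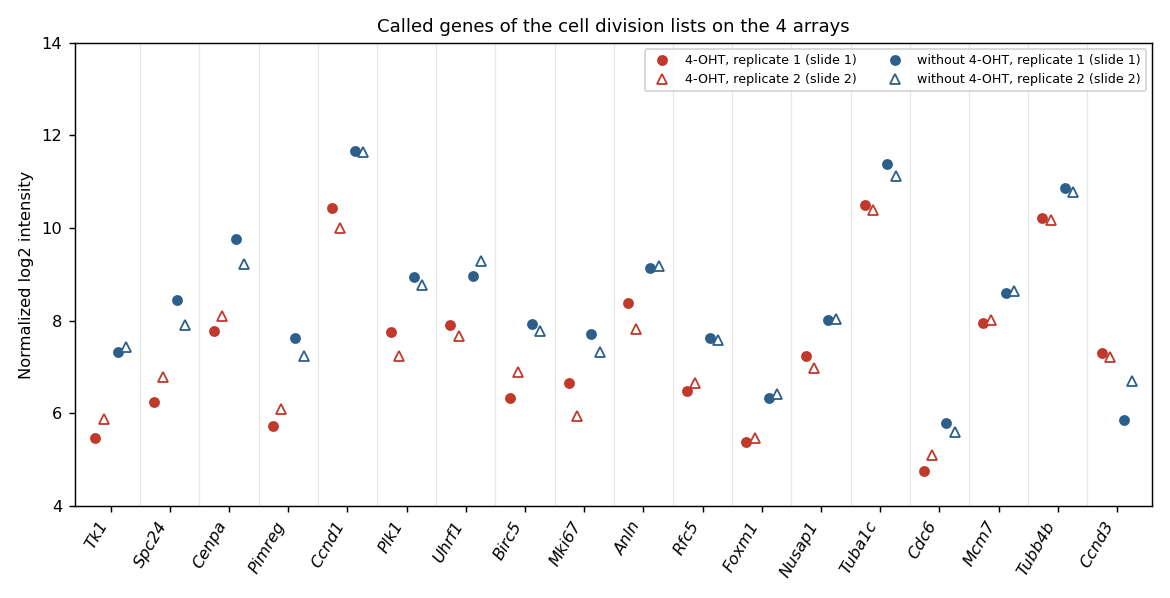
Normalized log2 intensity (vertical axis) of the 18 genes that passed the threshold in the lists of G2 and mitosis, DNA replication and G1 to S control, with 4-OHT (red) left of no 4-OHT (blue), circles for slide 1 and triangles for slide 2. In 17 of them both red points lie below both blue points, and in Ccnd3 both lie above.

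Promoter windows of 3 of the mitotic genes that fell are printed here as examples that hold both of the elements marked. Not every mitotic gene that fell holds both, as the counts after the sequences show. Capitals mark the CCAAT box (CCAAT, or ATTGG on the other strand) and the cell cycle homology region core (TTTGAA, or TTCAAA on the other strand). Many mitotic promoters are timed by these elements. Each window runs from 250 bases before to 50 bases after a start site in the RefSeq table of build GRCm38.p6, written 5′ to 3′ on the strand of the gene.
Plk1, chr7:122159185-122159484, plus strand: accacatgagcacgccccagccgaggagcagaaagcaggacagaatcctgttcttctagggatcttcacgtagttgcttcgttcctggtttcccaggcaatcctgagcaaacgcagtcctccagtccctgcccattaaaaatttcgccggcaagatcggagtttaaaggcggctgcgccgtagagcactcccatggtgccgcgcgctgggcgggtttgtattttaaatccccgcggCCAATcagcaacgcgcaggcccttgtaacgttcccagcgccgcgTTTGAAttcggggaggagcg
Cenpa, chr5:30666636-30666935, plus strand: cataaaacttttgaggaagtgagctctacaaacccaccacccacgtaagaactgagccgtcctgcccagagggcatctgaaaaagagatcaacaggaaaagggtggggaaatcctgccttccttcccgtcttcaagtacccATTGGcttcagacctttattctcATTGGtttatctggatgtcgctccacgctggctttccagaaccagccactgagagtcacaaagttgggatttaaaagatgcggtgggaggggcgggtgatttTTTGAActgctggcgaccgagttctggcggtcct
Mki67, chr7:135716330-135716629, minus strand: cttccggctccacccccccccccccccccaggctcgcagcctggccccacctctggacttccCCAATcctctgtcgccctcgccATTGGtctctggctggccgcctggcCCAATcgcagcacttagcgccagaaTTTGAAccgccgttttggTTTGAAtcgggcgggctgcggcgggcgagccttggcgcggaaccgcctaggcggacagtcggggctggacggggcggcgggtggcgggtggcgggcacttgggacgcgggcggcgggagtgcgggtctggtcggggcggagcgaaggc
Of the 11 mitotic genes that fell, 8 have a window in the table, and 5 of these hold TTTGAA on either strand (Anln, Cenpa, Mki67, Plk1 and Tubb4b), against 13.8% of the 3070 tested named genes with a window, 20.2% of all 27025 genes with one and 17.9% of all 32851 windows. Among all genes with a window it lies in 28 of the 104 that fell (26.9%) and in 9 of the 47 that rose (19.1%). A CCAAT box on either strand lies in 5 of the 8 (Cenpa, Mki67, Plk1, Tuba1c and Tubb4b) and in 42.7% of the tested genes, 41.1% of all genes and 37.4% of windows. It lies in 44.2% of the genes with a window that fell and in 51.1% of those that rose. The full cAMP response element TGACGTCA, the same on both strands, lies in 0 of the 8 and in 1 of the 104 genes with a window that fell (0.962%), against 3.91% of the tested genes, 2.03% of all genes and 1.79% of windows. The AP-1 element TGANTCA, the same on both strands, lies in 11 of these 104 genes (10.6%), against 5.47% of the tested genes, 8.97% of all genes and 7.81% of windows. A match is a string of letters in this window and not a measured site.

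Cyclin D1 was lower with 4-OHT by all 3 of its probes. The brightest had deposited intensities of 1210 and 1090 units with 4-OHT and 2790 and 3980 units without it, and was 2.71-fold lower after normalization (log2 fold change -1.44 ± 0.19, adjusted p = 0.00449). A second probe read 7.72 and 7.71 with 4-OHT and 9.82 and 9.76 without it (log2 fold change -2.07, adjusted p = 0.000148), and the dimmest was at background with 4-OHT and at least 2.56-fold lower. No array with 4-OHT reached an array without it by any of the probes, and the fall held on both slides, 2.34-fold and 3.14-fold for the brightest probe, yet the call of that probe ended without control replicate 1. Ccnd3, the cyclin D3 that shares its role, was higher, with 7.31 and 7.22 with 4-OHT and 5.85 and 6.70 without it (log2 fold change 0.99 ± 0.25, adjusted p = 0.0427), while a second, dim Ccnd3 probe stood at -0.03. Cdkn1a, the p21 inhibitor of cyclin-dependent kinases, did not pass by either probe, the brighter reading 11.07 and 10.96 with 4-OHT and 10.77 and 10.92 without it. Of the 10 measured genes of G1 to S control, these 2 cyclins were the only ones that passed.

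The list of ATF, AP-1 and CREB proteins is a wide one that also holds C/EBP, MAF and BACH proteins, Xbp1 and Crtc1. In it 2 of 11 measured genes were lower and 0 higher (3.34% and 1.53% of all named genes), and the median log2 fold change was -0.39. Junb, a JUN protein of the AP-1 complex, read 6.30 and 6.71 with 4-OHT and 7.18 and 7.35 without it (log2 fold change -0.76 ± 0.19, adjusted p = 0.0457). Maf, a large MAF protein, read 5.60 and 5.78 with 4-OHT and 6.31 and 6.44 without it (log2 fold change -0.69, adjusted p = 0.0354). The groups do not overlap in either gene, and the call of Junb ended without 4-OHT replicate 1 or either control. Atf7, the closest relative of ATF2 among those measured, stood at 9.15 and 9.18 with 4-OHT and 8.99 and 9.18 without it. The Nras probe read 84.7 and 67.8 units of deposited intensity with 4-OHT and 58.0 and 86.9 without it, with the higher value on a different slide in each group, and did not pass.

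Genes often used as references also moved. Actb, cytoplasmic beta-actin, was lower by all 3 probes, with log2 fold changes of -0.80, -1.69 and -1.40, the brightest reading 11.87 and 11.77 with 4-OHT and 12.73 and 12.50 without it (adjusted p = 0.0235). Gapdh of glycolysis read 12.86 and 12.84 with 4-OHT and 13.43 and 13.68 without it (log2 fold change -0.70, adjusted p = 0.0474), and 2 of its 3 probes passed. Neither gene's groups overlap by the brightest probe. Aldoa, the aldolase of glycolysis, fell by 0.88 and Ccn1, a matricellular target of serum response factor, by 1.12. Egln1, the oxygen-sensing prolyl hydroxylase, was higher by 0.86. In the whole list of actin and contractility genes 2 of 19 were lower and 0 higher, with a median log2 fold change of -0.20. In that of glycolysis and HIF targets 2 of 16 were lower and 1 higher, with a median of -0.03. Of all named genes 3.34% were lower and 1.53% higher, with a median of -0.01. Stard4, a carrier of cholesterol, fell by 0.90. Of the 17 measured genes of sterol synthesis and uptake, 2 were lower and 0 higher (3.34% and 1.53% of all named genes), with a median of -0.02.

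A few probes of the array read engineered or altered sequences by their names. The neomycin resistance probe read 8.64 and 9.94 with 4-OHT and 10.90 and 10.99 without it (log2 fold change -1.66 ± 0.34, adjusted p = 0.0220), with no overlap of the groups. The p16 probe read 5.78 and 7.72 with 4-OHT and 7.16 and 7.06 without it, so that its groups overlap. It was above background on all 4 arrays, although the study describes the mice as lacking Ink4a, and which stretch of the transcript it reads is not known here. Probes named for Cre and for the tetracycline transactivators were not above background on any of the 4 arrays.

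The largest rise with 4-OHT was that of Trpm1, the melastatin channel of pigment cells. It read 11.14 and 11.14 with 4-OHT and 7.97 and 10.05 without it (log2 fold change 2.13 ± 0.50, adjusted p = 0.0360). The groups do not overlap, but the size rests on control replicate 1, and without that array the log2 fold change was 1.09 and did not pass (adjusted p = 0.142). The call also ended without 4-OHT replicate 1 (adjusted p = 0.0777). Trpm1 was the only one of 9 measured genes of melanin synthesis and the melanosome that passed. Gpnmb, a melanosomal glycoprotein, read 13.70 and 13.39 with 4-OHT and 13.51 and 13.39 without it, and did not pass (log2 fold change 0.10).

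Ifit3, an antiviral protein induced by interferon, read 7.20 and 7.45 with 4-OHT and 5.64 and 6.05 without it, 2.79-fold higher (log2 fold change 1.48 ± 0.20, adjusted p = 0.00430). A second probe gave 1.49, and the dimmest, at 0.74, did not pass. Irf9, a DNA-binding subunit of the complex that switches on interferon genes, read 7.59 and 7.35 with 4-OHT and 6.62 and 6.76 without it (log2 fold change 0.78 ± 0.19, adjusted p = 0.0374). In both genes all arrays with 4-OHT lay above those without it. Of the 11 measured interferon genes 2 were higher and 0 lower, where 1.53% of all named genes were higher and 3.34% lower. The other 9 did not pass, among them Irf1 at 0.12, and the median log2 fold change of the 11 was 0.38. In 5 of the 11 interferon genes both arrays with 4-OHT lay above both without it, against 19.2% of named genes. The Ifit3 window of the RefSeq table (GRCm38.p6) is printed as that of the interferon gene with the largest rise, with the matches to the core of the interferon-stimulated response element in capitals.
Ifit3, chr19:34583279-34583578, plus strand: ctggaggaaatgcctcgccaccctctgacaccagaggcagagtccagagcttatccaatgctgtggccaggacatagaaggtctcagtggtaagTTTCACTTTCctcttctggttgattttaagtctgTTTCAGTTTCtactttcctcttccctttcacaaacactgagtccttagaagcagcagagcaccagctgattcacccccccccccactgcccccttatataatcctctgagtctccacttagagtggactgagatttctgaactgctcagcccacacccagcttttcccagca
On either strand this core lies in 2.9% of the tested genes, 3.99% of all genes and 3.44% of windows, and among the 47 genes with a window that rose it lies in 3, Cxcl14, H2-T22 and Ifit3.

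The other large rises were of genes with no shared role in the lists. Sh3gl2, an endophilin of vesicle uptake, read 7.39 and 7.47 with 4-OHT and 6.27 and 6.06 without it, 2.40-fold higher (adjusted p = 0.00511). Utrn, the utrophin that links actin to the membrane, read 7.11 and 7.14 with 4-OHT and 5.99 and 6.05 without it, 2.15-fold higher (adjusted p = 0.0155). Both rises were near equal on the 2 slides. Ssbp2, a single-stranded DNA binding protein, rose by 1.12 on the log2 scale, Mtmr2, a lipid phosphatase, by 1.29, Hsd17b11, a hydroxysteroid dehydrogenase of lipid droplets, by 1.25, Top1, the DNA topoisomerase, by 1.02 and Hnrnpk, an RNA-binding protein, by 1.16. Tmem255a, Pqlc3 and Zfp93 rose by 1.40, 1.35 and 1.08. Amigo2, an adhesion protein, and Psmc1, an ATPase of the proteasome, were at background on both arrays without 4-OHT and were at least 1.97-fold (adjusted p = 0.0283) and at least 1.46-fold higher (adjusted p = 0.0197). Mest, an imprinted gene of growth, read 10.46 and 9.88 with 4-OHT and 9.37 and 8.93 without it (log2 fold change 1.02 ± 0.23, adjusted p = 0.0311). Without control replicate 1 only Sh3gl2 kept its call among the 15 largest rises, whereas 7 of the 15 largest falls did (Syt4, Rpl29, Tinagl1, Psmd8, Trim11, Tk1 and S100a7a). Without 4-OHT replicate 1, 7 of the 15 rises and all 15 falls kept theirs.

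The size of the change differed between the slides. On slide 1 the array with 4-OHT differed from that without it by 2-fold or more at 1562 probes, 694 higher and 868 lower, and on slide 2 at 362 probes, 141 higher and 221 lower. Of these, 64 were higher and 121 lower on both slides, and 0 went opposite ways on both. They are 51.1% of the probes of slide 2 and 11.8% of those of slide 1. Across the 13883 probes, which are not independent replicates, the changes on the 2 slides correlated at 0.45. The 2 arrays with 4-OHT correlated at 0.946 and differed 2-fold at 1250 probes. The 2 arrays without it correlated at 0.976 and differed 2-fold at 286 probes, and the wild type pair in normoxia did so at 3.

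**Figure D3:**
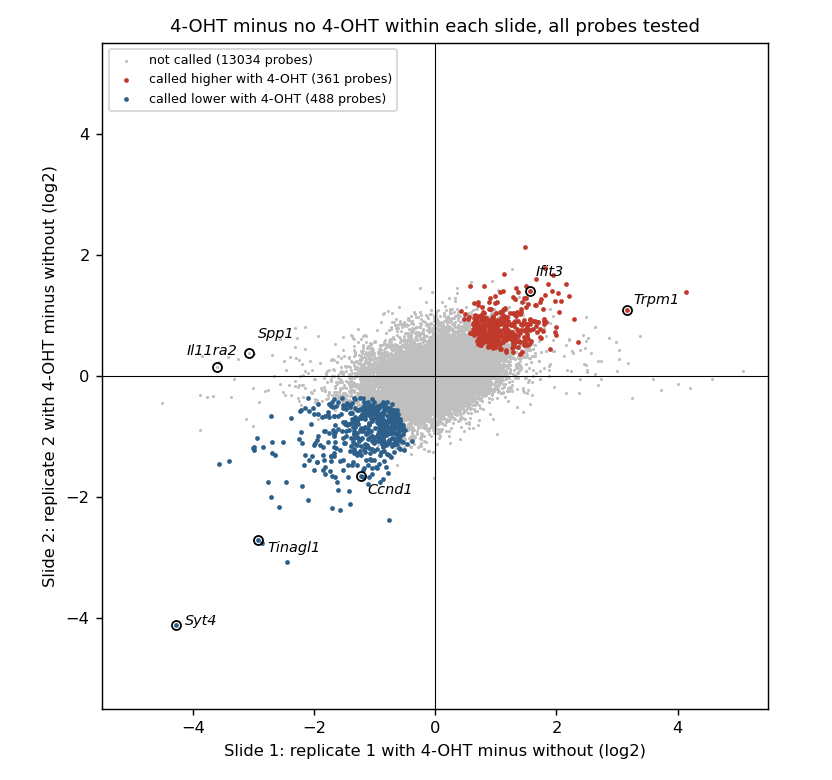
Difference between the array with and the array without 4-OHT on slide 1 (horizontal axis, log2) and on slide 2 (vertical axis, log2) for 13883 probes, with called probes in red (361 higher) and blue (488 lower). Syt4, Tinagl1, Ccnd1 and Ifit3 lie near the diagonal, while Il11ra2 and Spp1 lie far to the left at a slide 2 difference near 0.

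The gap lay mostly in 1 array. The array of 4-OHT replicate 1 alone was 2-fold or more below the other 3 arrays at 358 probes and above them at 52. Control replicate 1 alone was below the others at 133 probes and above them at 1, whereas either array of slide 2 stood alone in this way at no more than 28 probes in a direction. The 10 named genes with the largest gap between slides all read low on 4-OHT replicate 1. Il11ra2, a receptor chain for interleukin 11, read 6.10 and 9.92 with 4-OHT and 9.70 and 9.77 without it, so that 3 of the 4 arrays are close. Psma3, a subunit of the proteasome core, was 13.6-fold lower with 4-OHT on slide 1 and 1.28-fold lower on slide 2, Selenok, a selenoprotein of the endoplasmic reticulum, 12.9-fold and 1.26-fold, and Spp1, the secreted phosphoprotein osteopontin, read 7.83 and 11.85 with 4-OHT and 10.91 and 11.49 without it. Ginm1, Nop53, Cnih1, Il10rb, Calm2 and Gsta2 showed the same pattern. None of the 10 passed the threshold, and their direction on slide 2 was not the same for all, being lower with 4-OHT for Selenok and Psma3 and higher for Il11ra2 and Spp1.

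**Figure D4:**
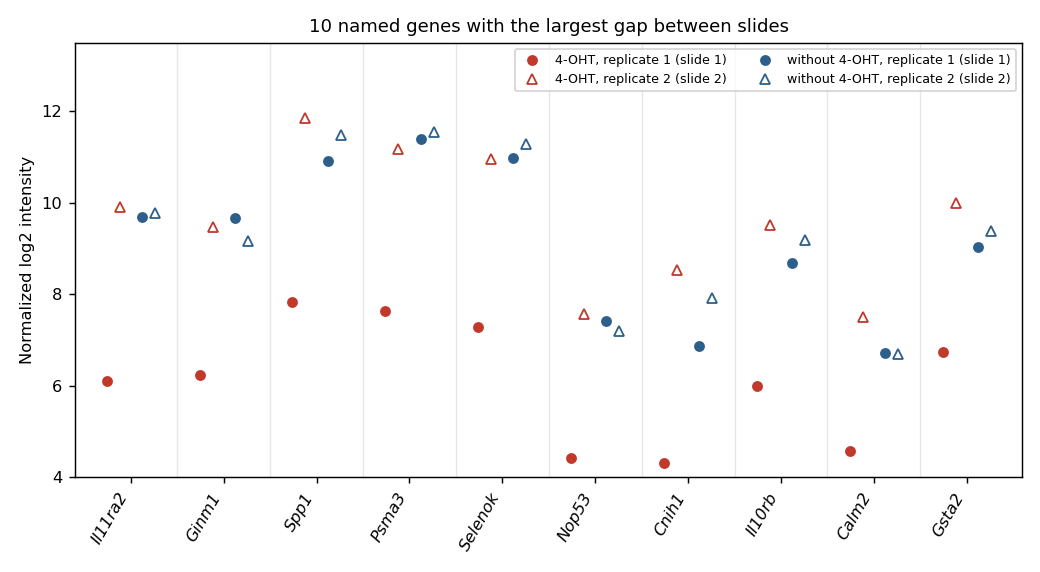
Normalized log2 intensity (vertical axis) of the 10 named genes whose change differed most between slides, with 4-OHT (red) left of no 4-OHT (blue), circles for slide 1 and triangles for slide 2. In each gene the lowest point is the red circle, 4-OHT replicate 1.

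Gene families of the ribosome and the mitochondrion also differed between the slides. The 42 measured subunits of the respiratory chain had a median change of -0.98 on slide 1 and 0.03 on slide 2, the 31 mitochondrial ribosomal proteins -0.87 and -0.12, and the 65 cytosolic ribosomal proteins -0.60 and 0.01. Between the 2 arrays with 4-OHT the median of replicate 1 minus replicate 2 was -0.95, -0.75 and -0.63 in these 3 families, and between the 2 arrays without 4-OHT it was 0.02, 0.16 and -0.03. These families passed the threshold at 1 of 42 (Cox5b, lower), 0 of 31 and 2 of 65 (Rpl29 and Rpl27, lower), with 0 higher, against 3.34% lower among named genes. The median of the mitochondrial ribosomal proteins was below 0 on both slides, but on slide 2 the median of all named genes was -0.04. Of these 31 genes 18 were lower on both slides, as were 1179 of all 3803 named genes.

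**Figure D5:**
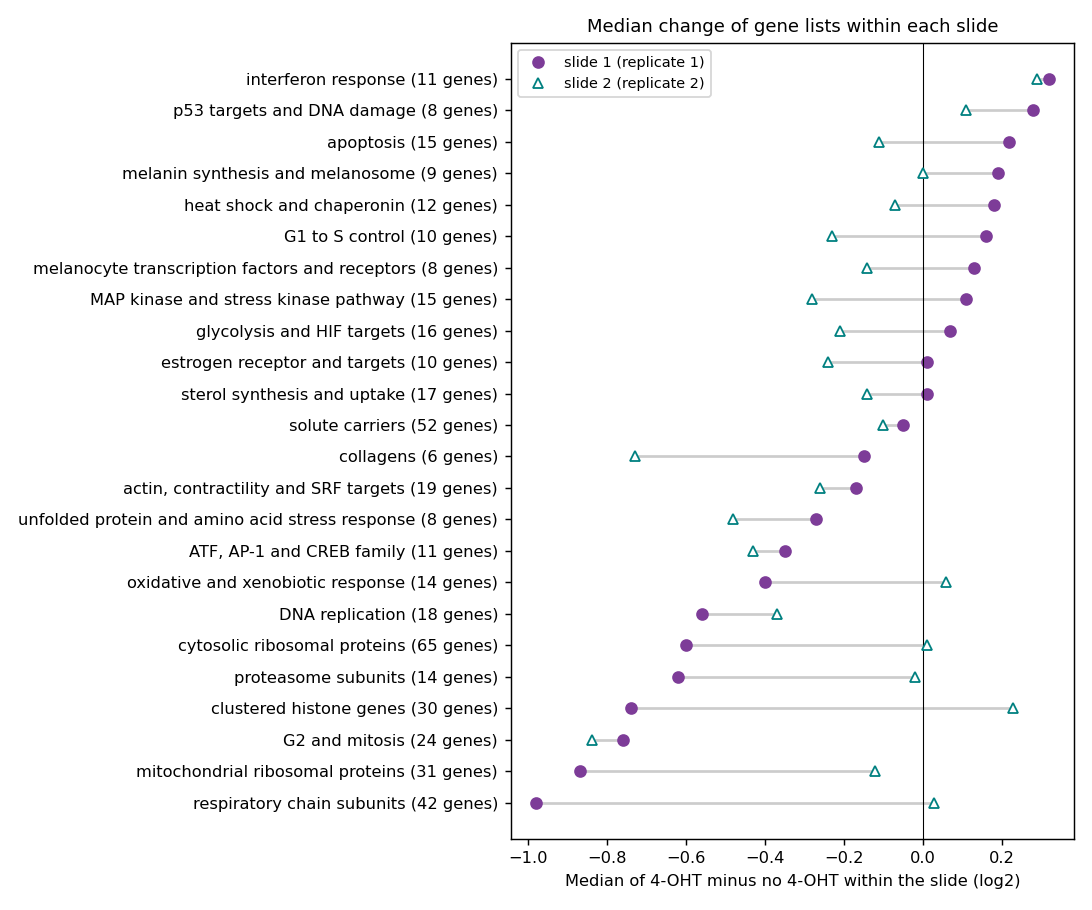
Median within-slide difference between the arrays with and without 4-OHT (horizontal axis, log2) of each gene list with 6 or more measured genes, as a filled circle for slide 1 and an open triangle for slide 2. The 2 symbols lie close for G2 and mitosis (-0.76 and -0.84) and far apart for respiratory chain subunits (-0.98 and 0.03).

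Other lists gave few calls. Of 8 measured p53 targets and DNA damage genes 0 passed, although both arrays with 4-OHT lay above both without it in 7 (19.2% of all named genes), with a median log2 fold change of 0.20. Of 8 measured melanocyte transcription factors and receptors 0 passed, Sox4 standing at -0.60 (adjusted p = 0.109). Of 12 heat shock and chaperonin genes 0 passed. Among stress and xenobiotic genes Phgdh, an enzyme of serine synthesis, fell by 0.75 as 1 of 8, and Gstm1, a glutathione transferase, by 0.81 as 1 of 14. Cycs, cytochrome c, and Birc5 were the 2 of 15 apoptosis genes that passed, both lower, and Birc5 is also counted among the mitotic genes above. The genes that fell are 12.5%, 7.14% and 13.3% of these 3 short lists. Of all named genes 3.34% were lower and 1.53% higher. Of 11 skeletal muscle markers measured, Car3, a carbonic anhydrase of muscle, was higher by 0.62 and Mef2c, a transcription factor of muscle and other cells, lower by 0.82. Chrna1, a subunit of the muscle acetylcholine receptor, read 11.14 and 11.62 with 4-OHT and 11.36 and 11.46 without it, and did not pass.

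The same mutant melanocytes were also compared with and without 4-OHT after 12 h in 1% O2, on arrays that the comparison in normoxia does not share. The effect of 4-OHT differed between normoxia and hypoxia at 680 probes (4.90% of those tested, interaction term, adjusted p under 0.05). Of the 849 probes called in normoxia, 660 were called in the same direction in hypoxia and 18 in the opposite direction. The 660 are 77.7% of the calls in normoxia and 17.3% of those in hypoxia, where 3819 of all 13883 probes tested were called. Both comparisons took the spread of a probe from the same fit of 12 arrays, so their calls are not independent. Syt4 had a log2 fold change of -5.24 in hypoxia, and the difference of 1.04 between the oxygen levels did not pass (adjusted p = 0.214). Ccnd1 had -1.14 in hypoxia (difference -0.30, adjusted p = 0.645) and Plk1 -1.89 (difference 0.52, adjusted p = 0.393). Over the 24 genes of G2 and mitosis the median in hypoxia was -1.56, with 20 lower and 0 higher, where 11.4% of all named genes were lower, 13.0% were higher and the median was -0.02. In the same comparison in hypoxia 9 of 11 skeletal muscle markers were higher with 4-OHT (median 1.99), as were 4 of 7 fibroblast markers (median 1.25) and 2 of 4 keratinocyte markers (median 1.34), and 1 fibroblast marker was lower. Their part in the mitotic values was not tested. Mest differed, rising by 1.02 in normoxia and by 5.63 in hypoxia (difference -4.61 ± 0.33). Its level with 4-OHT was 10.46 and 9.88 in normoxia and 10.37 and 10.03 in hypoxia. Without 4-OHT it was 9.37 and 8.93 in normoxia and 4.67 and 4.47 in hypoxia, so that the mutant cultures without 4-OHT part between the oxygen levels. Wild type cells in normoxia read 4.53 and 4.48, so such low values were not confined to hypoxia.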

How the data were processed

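RNA of the cultures was hybridised to Illumina Mouse-6 BeadChips, 12 arrays in 6 groups of 2. The authors deposited intensity values per probe without background subtraction or normalization, each with a detection p-value against 1603 negative control beads, and a second set that was background-subtracted and cubic spline normalized, used here as an alternative. From the intensities, normexp background correction with parameters inferred from the detection p-values (5 bright probes with off-step p left out, offset 16), quantile normalization and log2 were applied in limma 3.58.1 (R 4.3.3, Python 3.11.15). Probes that 1 or more of the 4 arrays detected (p under 0.01) were tested with lmFit and eBayes on all 12 arrays, with Benjamini-Hochberg adjustment over 13883 probes and a threshold of 0.05. The code was tested on simulated data. Gene names were read from Entrez gene numbers in the probe identifiers, of which 82.6% were found in the RefSeq table (46.0% after adding 1 to each number), and a gene with several probes is given by the brightest. The genes named are the 15 largest rises and 15 largest falls with groups that do not overlap, the 10 with the largest gap between slides, genes the study names, and members of role lists. Other named examples were chosen after their values were seen. Members and lists were chosen with earlier results of these data known. Replicate numbers mark a shared slide in the labels, and same-numbered arrays deviated together (correlation 0.36), so the slide was tried as a block. Alternatives covered background, offset, normalization, filters, the arrays in the fit, weights and each array left out. Results of a few genes of these lists are not reported here.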

Additional observations from a re-analysis of the deposited data

Results flagged for a closer look

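The effect of 4-OHT in mutant melanocytes differed between normoxia and hypoxia at 680 probes by the interaction term of the limma fit (adjusted p under 0.05), and the 5 named genes with the largest difference, normoxia minus hypoxia, are given here. Chrng, the fetal subunit of the muscle acetylcholine receptor, differed by -7.39 on the log2 scale. It read 10.62 and 10.60 with 4-OHT and 11.26 and 11.08 without it in normoxia, and 11.37 and 10.93 with 4-OHT and 4.27 and 4.36 without it in hypoxia. Chrna1, the alpha subunit of that receptor, differed by -7.39 as well, with 11.41 and 11.95 with 4-OHT and 4.34 and 4.30 without it in hypoxia. Neurl1a, a ubiquitin ligase, differed by -5.81, Myh7, the slow myosin heavy chain, by -5.59 and Mgp, the matrix Gla protein, by -4.76. In each of the 5 the mutant cultures without 4-OHT in hypoxia and the wild type cultures in normoxia lay near the lowest values, between 4.27 and 4.86, and the mutant cultures in normoxia lay high with and without 4-OHT. Chrng, Chrna1 and Myh7 belong to the skeletal muscle markers, and the part of muscle cells in these differences was not tested.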

How the results depend on the processing

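None of the 849 calls turned its direction under any alternative run, but their number moved. The probes called, with the higher and lower ones in turn, were 550 (231 and 319) with the default background estimate of limma's neqc, 41 (2 and 39) with median scaling, 61 (12 and 49) in a fit of the 8 mutant arrays, 23 (3 and 20) with array weights and 11 (1 and 10) at an unadjusted p under 1e-06. With only the 4 arrays compared 1 was called, 0 higher and 1 lower. With the replicate number, which is the slide, as a block there were 1302, of which 604 were higher, and the block ended no call. Leaving out 1 array gave 43 to 2985 probes, 7 to 1302 higher and 36 to 1683 lower. The 680 probes whose effect differed between oxygen levels became 368 with median scaling, 376 with only the 8 arrays compared or the 8 mutant arrays, 425 with array weights, 117 at the unadjusted p under 1e-06 and 446 to 2053 with 1 array left out. A fit that leaves a group with 1 array assumes that it varies like the other groups. Median scaling made 4.88% of calls higher ones, against 42.5%, while it moved the median of all probes to -0.02. For 41 named gene results, 534 of 700 alternative values kept the call or its absence, and 166 lost the call but kept direction. The 534 include values of genes not called in either fit, such as Nras and Dct, whose direction was not compared. They also include the 5 differences between oxygen levels, which kept their calls in every alternative. The cause of these shifts was not tested. Array data give no counts, so 2 arrays a group set the precision, and genes near background are known only by bounds.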
